A study of Mus musculus with 24 samples.

Results

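FHL, CSRP and PDZ-LIM genes encode a group of LIM-domain proteins of striated muscle, and 10 of them were followed here: Fhl1, Fhl2, Fhl3, Csrp1, Csrp2, Csrp3, Ldb3, Pdlim3, Pdlim5 and Pdlim7. They were taken by gene symbol from the 56941 genes listed, and 10 of the 10 passed the filter on low counts that left 13315 genes for testing. The genes were chosen by family name, with earlier differences in CPM between these libraries known, among them the higher level of Fhl2 in stimulated tissues. For that reason Fhl2 is described by its values and no p is given for it, although the fits and the counts of called genes include it.

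C2C12 is a mouse myoblast line that fuses into contractile myotubes, and the cells carried ChR2::tdTomato, a light-gated cation channel joined to a red fluorescent protein. In all 4 groups the cells grew on fibrin hydrogel and were differentiated in medium that held IGF-1 at 50 ng/ml and horse serum, inactivated, at 10%. Controls received no stimulation, and the other tissues were stimulated with light for 60 min a day at 1, 4 or 10 Hz. Each group had 6 libraries, 24 in all, read as pairs of 50 bases at a depth of 8052369 to 18159144 estimated counts. The tissues come from a single line, and the study saw spontaneous twitching without light, so how far the controls were at rest is not known. The labels call the cells myoblasts, and the 10 myotube markers were present in each group. Their summed level was 8648 to 10643 TPM in controls, 6683 to 10860 at 1 Hz, 9334 to 10516 at 4 Hz and 7514 to 9398 at 10 Hz. In tissues of mixed cells, fewer cells of a type and less RNA per cell cannot be told apart.

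LIM domains are zinc-binding modules through which proteins bind other proteins. The FHL proteins consist almost entirely of them and join actin filaments, titin and nuclear factors. The CSRP proteins, also named CRP, bind alpha-actinin and zyxin; Csrp3 encodes muscle LIM protein, which belongs to the Z-disc of heart and skeletal muscle. Ldb3 (ZASP or Cypher), Pdlim3 (ALP), Pdlim5 (ENH) and Pdlim7 (Enigma) carry a PDZ domain beside their LIM domains and hold alpha-actinin at the Z-disc, where thin filaments of neighbouring sarcomeres are anchored.

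The promoters of Fhl2, Csrp3, Pdlim3 and Csrp2 are shown because the results turn on these genes. Each sequence holds the 250 bases before the start of the GENCODE canonical transcript in GRCm39, read 5′ to 3′ on the strand of the gene. Capitals mark the motifs found on either strand. For Fhl2 the stretch is chr1:43236291-43236540 on the minus strand, for Csrp3 chr7:48497902-48498151 on the minus strand, for Pdlim3 chr8:46338148-46338397 on the plus strand and for Csrp2 chr10:110755400-110755649 on the plus strand.
Fhl2: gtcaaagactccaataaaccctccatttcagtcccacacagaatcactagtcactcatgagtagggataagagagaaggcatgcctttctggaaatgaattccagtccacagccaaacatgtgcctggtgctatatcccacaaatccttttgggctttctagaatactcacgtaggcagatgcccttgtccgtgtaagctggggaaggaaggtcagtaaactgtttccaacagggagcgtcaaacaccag
Csrp3: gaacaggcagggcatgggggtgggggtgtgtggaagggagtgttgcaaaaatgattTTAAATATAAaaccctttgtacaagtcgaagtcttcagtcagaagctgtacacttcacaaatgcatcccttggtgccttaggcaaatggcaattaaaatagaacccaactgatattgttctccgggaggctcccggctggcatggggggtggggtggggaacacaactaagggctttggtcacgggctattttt
Pdlim3: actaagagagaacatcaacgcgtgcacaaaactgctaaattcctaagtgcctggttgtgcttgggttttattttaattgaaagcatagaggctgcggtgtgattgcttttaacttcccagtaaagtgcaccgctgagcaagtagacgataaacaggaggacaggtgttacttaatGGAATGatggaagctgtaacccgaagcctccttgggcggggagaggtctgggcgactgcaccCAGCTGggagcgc
Csrp2: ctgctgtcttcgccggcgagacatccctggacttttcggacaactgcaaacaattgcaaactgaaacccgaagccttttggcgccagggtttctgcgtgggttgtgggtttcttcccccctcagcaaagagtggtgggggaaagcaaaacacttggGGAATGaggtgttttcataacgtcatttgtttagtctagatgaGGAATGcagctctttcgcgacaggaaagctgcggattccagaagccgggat

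6 motifs of muscle and activity-responsive factors were searched in 21603 promoters of this length. The MCAT element CATTCC, bound by TEAD factors, was present at 2 places in Csrp2 and at 1 in Pdlim3, and in 12.2% of all promoters. Pdlim3 also held the E-box CAGCTG, bound by myogenic factors and found in 11.6% of promoters. Csrp3 held a MEF2 motif, as did 2.8% of promoters, and Fhl1 a CArG box, the motif of serum response factor, as did 1.41%. Ldb3 held an AP-1 site, TGACTCA or TGAGTCA, present in 3.99% of promoters. The CRE core TGACGTCA, present in 1.71% of promoters, was not found in the members, and none of the 6 motifs was found in the Fhl2 stretch.

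Per length of transcript, Fhl1 was the most abundant of the 10 genes in controls, at 435 ± 26.2 TPM (SD, n = 6). Pdlim7 followed at 159 ± 7.23 TPM, Csrp1 at 152 ± 15.8, Csrp3 at 147 ± 11.1 and Pdlim5 at 145 ± 6.26, and neighbours among these 4 overlapped in range. Pdlim3 stood at 122 ± 7.29 TPM, below Pdlim5 in 6 of 6 libraries. Csrp2 at 90.8 ± 13.2 TPM and Ldb3 at 87.1 ± 4.70 TPM differed by less than their spread. Fhl2 at 38.8 ± 3.94 TPM and Fhl3 at 22.4 ± 2.45 TPM were the lowest, without overlap with each other. At 1 Hz the range of Fhl2, 83.3 ± 15.8 TPM, overlapped that of Ldb3, 79.1 ± 14.9 TPM.

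Values below are CPM, the counts of a gene relative to the size of its library after TMM scaling, and a call means an adjusted p under 0.05 over all tested genes by edgeR. The comparisons with control share the same 6 control libraries. At 1 Hz, 6 of 10 members were called higher and 0 lower, where 19.2% of all genes were called higher and 18.1% lower. At 4 Hz, 7 were called higher and 0 lower, against 27.5% and 23.9% of all genes. At 10 Hz, Fhl2 was the 1 member called, and it was higher, against 0.015% of all genes called higher and 0.0225% lower. These counts include Fhl2, whose call was known when the list was made, so nothing is read from its part in them. At 1 Hz the members had a median log2(fold change) of 0.34, beside 0.04 over all tested genes. At 4 Hz the medians were 0.38 and 0.06, and at 10 Hz 0.05 and 0.0067. An absolute log2(fold change) over 0.5 was reached by 1 called member at 1 Hz, where 14.9% of all genes passed both thresholds. It was reached by 3 at 4 Hz (25.1% of all genes) and by 1 at 10 Hz (0.0376%). All 6 libraries lay above all controls for 3 members at 1 Hz (Fhl2, Csrp1 and Pdlim5), 4 at 4 Hz (Fhl2, Csrp1, Csrp3 and Pdlim3) and 1 at 10 Hz (Fhl2), against 5.55%, 12.9% and 0.774% of all genes.

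**Figure D1:**
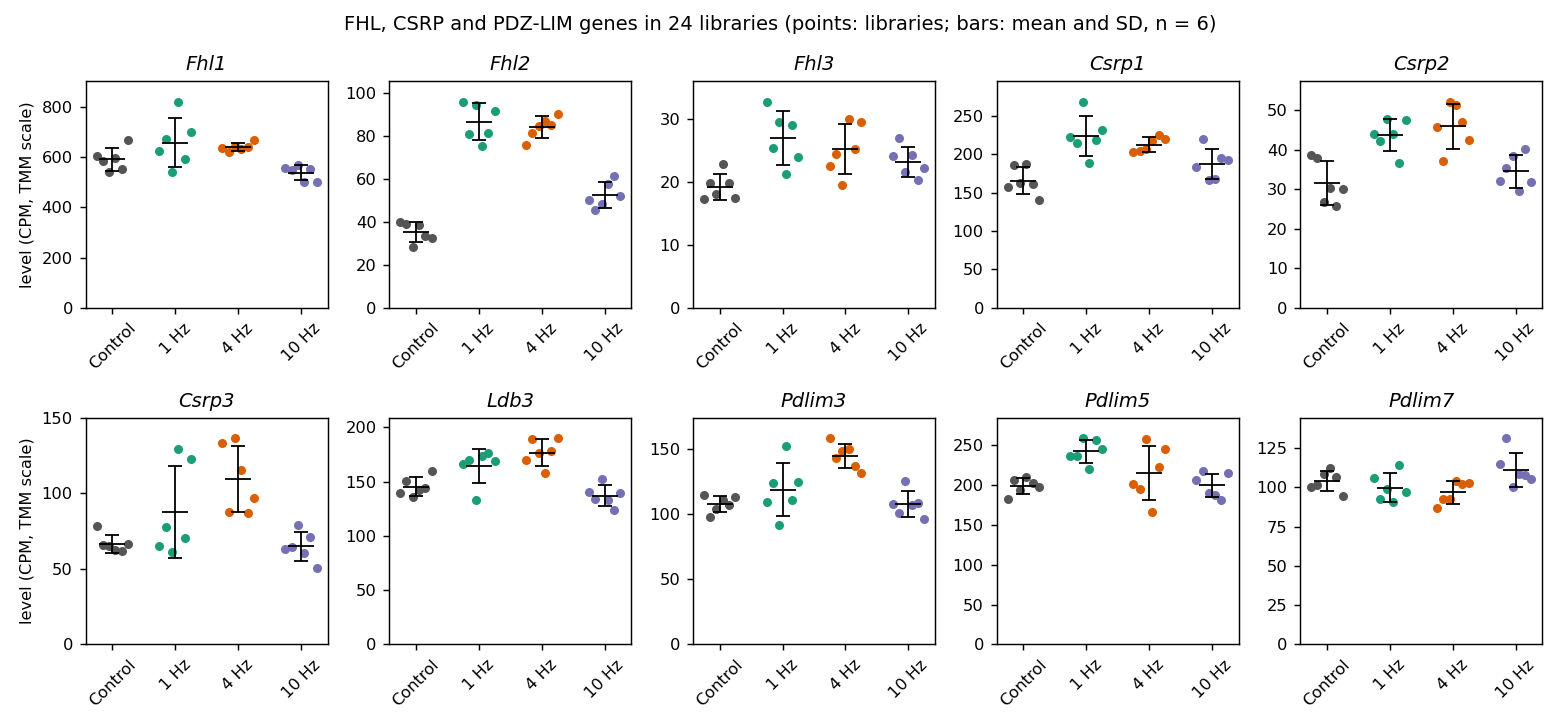
Level of the 10 genes in CPM (vertical axes, each from 0) in the 24 libraries by group; points are libraries and bars give the mean and SD of 6. Fhl2 lies between 28.1 and 40.2 CPM in controls and between 75.6 and 96.1 at 1 Hz, and Csrp3 at 1 Hz splits into 4 libraries at 61.3 to 77.8 CPM and 2 above 120.

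Fhl2, a cofactor that shuttles between focal adhesions, the Z-disc and the nucleus, had a lowest, median and highest level of 28.1, 36.0 and 40.2 CPM in controls. At 1 Hz these were 75.6, 86.8 and 96.1 CPM, and at 4 Hz 75.7, 85.1 and 90.5 CPM. At 10 Hz they were 45.7, 51.2 and 61.4 CPM. All 6 libraries of each frequency lay above all controls, and all at 10 Hz lay below those at 1 and 4 Hz. The ratio to control was 2.45 at 1 Hz (log2(fold change) 1.29, SE 0.089), 2.38 at 4 Hz (1.25, SE 0.089) and 1.49 at 10 Hz (0.57, SE 0.089). These SE values are derived from the F statistic of the fit and are not used as a test of Fhl2. Fhl2 made up 7.84 ± 0.861% of the summed TPM of the 3 FHL genes in controls (SD, n = 6). With stimulation this share was 15.9 ± 2.63% (1 Hz), 15.6 ± 0.673% (4 Hz) and 12.1 ± 1.47% (10 Hz).

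Fhl1, the main FHL gene of skeletal muscle, did not pass the test against control. Its lowest, median and highest levels were 542, 593 and 670 CPM in controls and 541, 648 and 822 CPM at 1 Hz. At 4 Hz they were 622, 639 and 667 CPM, and at 10 Hz 501, 551 and 568 CPM. Levels at 10 Hz lay below all 6 libraries at 4 Hz (log2(fold change) -0.25, SE 0.077, edgeR adjusted p = 0.0094). Fhl1 also fell from 1 to 10 Hz (log2(fold change) -0.29, edgeR adjusted p = 0.0066). The share of Fhl1 in the FHL sum spanned 86.6 to 89.4% in controls and 74.3 to 85.0% (1 Hz), 78.2 to 81.1% (4 Hz) and 80.3 to 84.4% (10 Hz) with stimulation.

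Fhl3, an actin-binding member expressed in skeletal muscle, rose at 1 Hz by a log2(fold change) of 0.48 (SE 0.11, edgeR adjusted p = 0.0013) and at 4 Hz by 0.40 (SE 0.11, edgeR adjusted p = 0.0044). It spanned 17.4 to 22.9 CPM in controls, with a median of 18.9, and 21.3 to 32.8 at 1 Hz, with a median of 27.3. At 4 Hz it spanned 19.6 to 30.1 CPM with a median of 24.9, and at 10 Hz 20.4 to 27.1 with a median of 23.2. The groups overlapped, with 5 of 6 libraries at 1 Hz and 4 of 6 at 4 Hz above all controls. Fhl3 had the fewest reads of the 10, with 141 to 389 estimated counts at 4 Hz.

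Csrp1, the widely expressed CSRP gene, rose at 1 and 4 Hz with all libraries above all controls. The lowest, median and highest levels were 139.9, 161.7 and 187 CPM in controls, 188, 220.3 and 268 CPM at 1 Hz, and 203, 212 and 225 CPM at 4 Hz. Levels at 10 Hz were 166, 188 and 219.8 CPM. The log2(fold change) was 0.43 at 1 Hz (SE 0.082, edgeR adjusted p = 2.0e-04) and 0.36 at 4 Hz (SE 0.082, edgeR adjusted p = 7.5e-04). It was 0.18 at 10 Hz (edgeR adjusted p = 0.58).

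Csrp2, known from smooth muscle and from myogenic differentiation, had a lowest, median and highest level of 25.8, 30.1 and 38.6 CPM in controls. At 1 Hz they were 36.7, 44.1 and 47.7 CPM, at 4 Hz 37.0, 46.4 and 52.2 CPM, and at 10 Hz 29.4, 33.7 and 40.1 CPM. At 1 Hz and at 4 Hz, 5 of 6 libraries lay above all controls. The log2(fold change) was 0.47 at 1 Hz (SE 0.11, edgeR adjusted p = 0.0012) and 0.54 at 4 Hz (SE 0.11, edgeR adjusted p = 1.8e-04).

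Csrp3 rose at 4 Hz by a log2(fold change) of 0.72 (SE 0.16, edgeR adjusted p = 9.9e-04). Its lowest, median and highest levels were 61.9, 65.5 and 78.4 CPM in controls and 87.3, 106 and 137 CPM at 4 Hz, so that the groups did not overlap. At 1 Hz they were 61.3, 74.0 and 129 CPM, and at 10 Hz 50.5, 63.9 and 79.4 CPM. Libraries 4 and 6 at 1 Hz, with 129 and 123 CPM, stood well above the other 4, which reached 77.8 CPM. Mitochondrial genes took 3.97% and 4.87% of the counts in these 2 libraries and 1.52 to 1.69% in the other 4. At 4 Hz, library 3, the highest in Csrp3 with 137 CPM, had 8.90%, and library 1, with 133 CPM, had 0.545%, the lowest of all 24. The part of this share in the level of Csrp3 was not tested. The test at 1 Hz gave a log2(fold change) of 0.40 (SE 0.16, edgeR adjusted p = 0.058), and without these 2 libraries 0.02 (edgeR adjusted p = 0.92). At 10 Hz the log2(fold change) was -0.04 (edgeR adjusted p = 0.99).

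Pdlim3, which binds alpha-actinin in skeletal muscle, rose at 4 Hz with all libraries above all controls (log2(fold change) 0.42, SE 0.087, edgeR adjusted p = 2.9e-04). Levels were 97.9 to 115 CPM in controls, with a median of 109, and 132 to 158 at 4 Hz, with a median of 146. At 1 Hz they spanned 91.8 to 152 CPM with a median of 118, and at 10 Hz 96.5 to 126 with a median of 108. Pdlim3 took 23.8 ± 1.08% of the summed TPM of the 4 PDZ-LIM genes in controls and 28.1 ± 2.14% at 4 Hz.

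Ldb3 rose at 4 Hz by a log2(fold change) of 0.28 (SE 0.069, edgeR adjusted p = 0.0014), with 5 of 6 libraries above all controls, while on the TPM scale described below its sign was opposite (-0.084). Its lowest, median and highest levels were 136, 143 and 159.8 CPM in controls, 158, 177 and 189.9 CPM at 4 Hz and 124, 136 and 153 CPM at 10 Hz. At 1 Hz they were 133, 169 and 176 CPM, with library 3 the lowest. The rise at 1 Hz was 0.18 (SE 0.069, edgeR adjusted p = 0.041), also with the opposite sign on the TPM scale (-0.16), and it missed the threshold without any 1 of 9 libraries, which were controls 1, 3, 4 and 5 and 1 Hz libraries 1, 2, 4, 5 and 6. The values without them ran from 0.14 to 0.18, within the range of 0.14 to 0.22 over all libraries left out in turn.

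Pdlim5, an anchor of protein kinase C, rose at 1 Hz with all libraries above all controls (log2(fold change) 0.28, SE 0.081, edgeR adjusted p = 0.0075). Levels were 183 to 210.2 CPM in controls, with a median of 200.1, and 219.9 to 259 at 1 Hz, with a median of 241. At 4 Hz they were the most spread, from 166 to 258 CPM with a median of 212 (log2(fold change) 0.11, edgeR adjusted p = 0.26). At 10 Hz they ran from 182 to 217 CPM with a median of 198.

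Pdlim7 passed the test against control at no frequency. It spanned 94.5 to 112 CPM in controls, 90.4 to 114 at 1 Hz, 86.7 to 104 at 4 Hz and 100.2 to 131 at 10 Hz, with medians of 104, 97.9, 97.1 and 108. The log2(fold change) was -0.06 at 1 Hz (edgeR adjusted p = 0.54), -0.10 at 4 Hz (edgeR adjusted p = 0.23) and 0.10 at 10 Hz (edgeR adjusted p = 0.82).

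**Figure D2:**
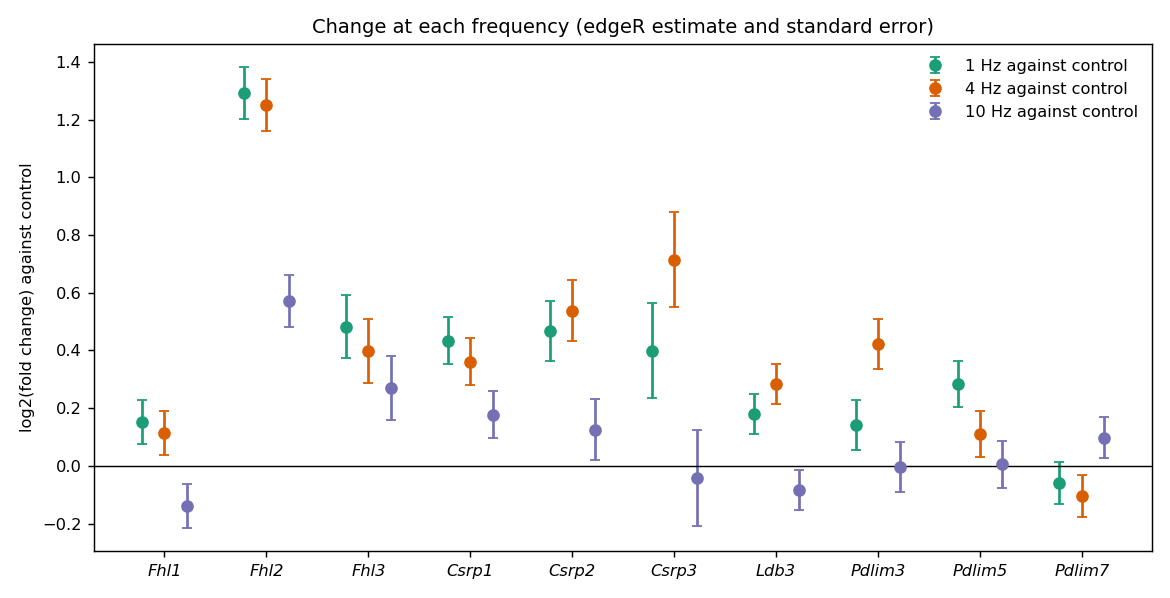
Log2(fold change) against control (vertical axis) of the 10 genes at 1, 4 and 10 Hz. Points are edgeR estimates and bars the standard error derived from the F statistic. Csrp3 (0.72) and Pdlim3 (0.42) stand higher at 4 Hz than at 1 Hz (0.40 and 0.14), while Pdlim5 stands at 0.28 at 1 Hz and 0.11 at 4 Hz.

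The frequencies were also compared with each other. Between 4 and 1 Hz, 0 members were called by edgeR, as were 0% of all genes, and DESeq2 and limma called 0 members. At an unadjusted p under 0.05, 2 members passed, Pdlim3 with a log2(fold change) of 0.28 and Pdlim5 with -0.17, where 1465 of 13315 genes passed. Leaving out the 1 Hz libraries 4 and 6, a choice made after their values were seen, takes away the highest 1 Hz values of Csrp3. The log2(fold change) between 4 and 1 Hz was then 0.67 for Csrp3 and 0.40 for Pdlim3, which varied with Csrp3, and edgeR called both higher, as 4.89% of the 13489 genes tested in that fit. The larger difference follows in part from the libraries removed, and nothing is read from it.

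Between 10 and 1 Hz, 7 members were called lower at 10 Hz, against 13.1% of all genes called lower. All 6 libraries at 10 Hz lay below all at 1 Hz for Fhl2 and Pdlim5, as for 2.67% of all genes. Beside Fhl2 and Fhl1 these were Csrp1 (log2(fold change) -0.26, edgeR adjusted p = 0.021), Csrp2 (-0.34, adjusted p = 0.018), Csrp3 (-0.44, adjusted p = 0.048), Ldb3 (-0.26, adjusted p = 0.0062) and Pdlim5 (-0.28, adjusted p = 0.012). For Csrp3 the difference was -0.07 without the 1 Hz libraries 4 and 6 (edgeR adjusted p = 0.75). The calls of Fhl1 (-0.16, edgeR adjusted p = 0.098) and Csrp2 (-0.29, adjusted p = 0.081) were lost in the same way, and Fhl3 was then called lower (-0.31, adjusted p = 0.0498). On log2(TPM + 1) the calls of Fhl1 (-0.079), Csrp1 (-0.063), Csrp2 (-0.15), Csrp3 (-0.19), Ldb3 (-0.035) and Pdlim5 (-0.083) were lost, where the median gene had 0.13, and Pdlim7 was called higher at 10 Hz (0.33, limma adjusted p = 0.023). Csrp1 missed the threshold without 1 Hz library 3 (-0.19) or 6 (-0.23), or 10 Hz library 3 (-0.21) or 4 (-0.23).

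Between 10 and 4 Hz, 6 members were called lower at 10 Hz and 1 higher, against 24.4% and 21.9% of all genes. Csrp3 had a log2(fold change) of -0.76 (SE 0.17, edgeR adjusted p = 8.5e-04), Pdlim3 -0.43 (SE 0.087, adjusted p = 3.9e-04) and Ldb3 -0.37 (SE 0.069, adjusted p = 1.6e-04), each with all libraries at 10 Hz below all at 4 Hz. This held for 5 members, Fhl1 and Fhl2 included, and for 8.1% of all genes. Csrp2 had -0.41 (edgeR adjusted p = 0.0029). Pdlim7 was the member called higher at 10 Hz (0.20, SE 0.072, edgeR adjusted p = 0.025), and it missed the threshold without 4 Hz library 1 or 10 Hz library 2 (0.17 in both). On log2(TPM + 1) the calls of Pdlim3 (-0.12), Ldb3 (-0.11) and Csrp2 (-0.088) were lost and Fhl1 had the opposite sign (0.063), where the median gene had 0.20. Csrp3 (-0.43, limma adjusted p = 0.0024) and Pdlim7 (0.40, adjusted p = 0.0025) stayed called on that scale.

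Libraries differed in the level of genes with short transcripts, and several members moved with it. The transcript length was taken as the count divided by the TPM, and 1429 short genes were compared with 1012 long genes in each library. The median log2 CPM of short minus that of long genes was -0.27 ± 0.15 in controls (SD, n = 6). It was 0.074 ± 0.47 with 1 Hz, 0.21 ± 0.25 with 4 Hz and -0.23 ± 0.28 with 10 Hz. At 4 Hz it differed from control by 0.49 (two-sided exact permutation test, p = 0.0043, adjusted over 3 comparisons p = 0.013). The same exact permutation test gave p = 0.13 at 1 Hz and p = 0.77 at 10 Hz. The 1 Hz libraries 4 and 6, with 0.74 and 0.57, were the highest of all 24 and the same in which Csrp3 was high.

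**Figure D3:**
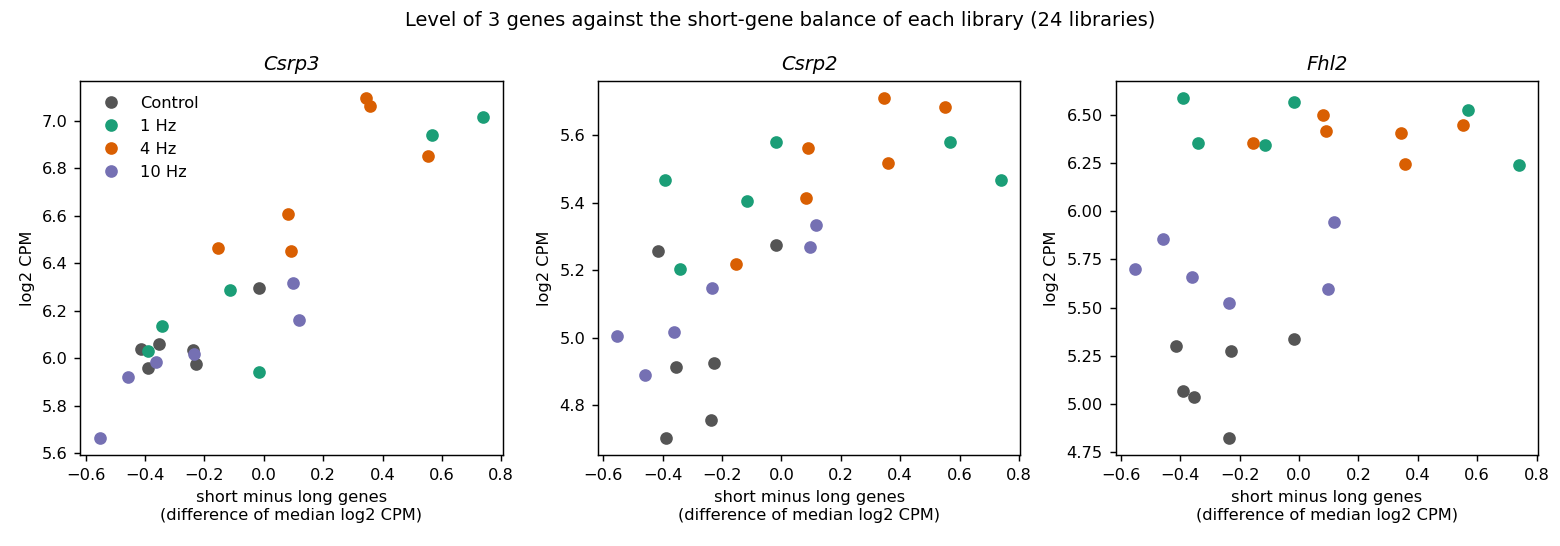
Log2 CPM of Csrp3, Csrp2 and Fhl2 (vertical axes) against the median log2 CPM of short minus long genes (horizontal axes); points are the 24 libraries, coloured by group. Csrp3 is high in the 1 Hz libraries at 0.74 and 0.57, while Fhl2 lies above 75 CPM in 1 Hz libraries at both ends of the axis.

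Each member was therefore set beside the genes whose transcript length lay within 20% of its own. The level of Csrp3 followed the median of such genes with r = 0.930 over the 24 libraries, Csrp2 with 0.806 and Ldb3 with -0.697, where libraries share depth and preparation. Differences centred on these genes were compared by two-sided exact permutation tests of 6 libraries against 6, adjusted over 30 tests that include those of Fhl2. Including a gene chosen with its rise known can lower the adjusted p of the other members. At 4 Hz the difference of Csrp3 was 0.70 before and 0.38 after centring (exact p = 0.0022, adjusted p = 0.0072), with 6 of 6 libraries above all controls. For Csrp2 it went from 0.55 to 0.10 at 4 Hz (exact test, adjusted p = 0.38) and from 0.48 to 0.21 at 1 Hz (adjusted p = 0.15), so that both calls were lost. The length of Csrp2 taken from count and TPM was below that of Csrp3 (-2.22 and -1.83 in log2 from the median gene, controls). Its canonical transcript is longer, with 1997 bases against 1003. The loss of the Csrp2 calls thus depends on genes matched to the length from count and TPM. Fhl3 had 0.39 at 1 Hz (exact test, adjusted p = 0.051) and 0.28 at 4 Hz (adjusted p = 0.065).

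After centring, Pdlim3 at 4 Hz (0.34), Csrp1 at 4 Hz (0.31) and Pdlim5 at 1 Hz (0.31) each had all 6 libraries above all controls, with an adjusted p of 0.0072 in the exact test. Csrp1 at 1 Hz had 0.40 (exact test, adjusted p = 0.019). Ldb3 had 0.27 at 1 Hz and 0.40 at 4 Hz (exact test, adjusted p = 0.027 and 0.0072). Before centring these differences were 0.18 and 0.28, and the genes of similar length had -0.090 and -0.12. Centring thus enlarged the differences of Ldb3, whose level ran against these genes. Pdlim7, not called by edgeR, passed the threshold at 4 Hz, with -0.26 and all 6 libraries below all controls (exact test, adjusted p = 0.0072). Before centring its difference was -0.11, while its genes of similar length rose by 0.15. Over the 24 libraries Pdlim7 ran against these genes (r = -0.439), so that centring enlarged its difference. Fhl1 passed at 4 Hz (0.15, exact test, adjusted p = 0.027) and at 10 Hz (-0.15, adjusted p = 0.040). The difference of Fhl2 was 1.23, 1.19 and 0.57 at 1, 4 and 10 Hz after centring. The part of the balance of short and long genes in the other differences was not tested.

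**Figure D4:**
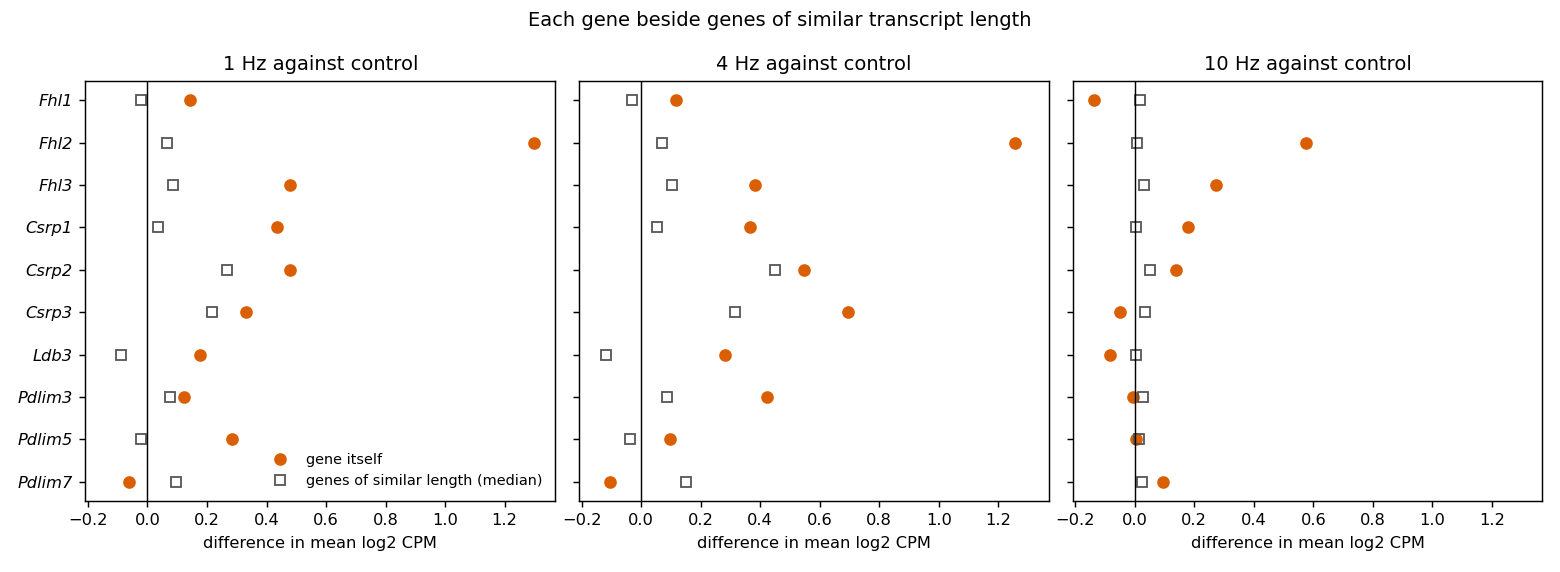
Difference in mean log2 CPM from control (horizontal axes) at 1, 4 and 10 Hz; filled points are the 10 genes and open squares the median of genes of similar transcript length. At 4 Hz the square of Csrp2 (0.45) lies close to its point (0.55), while Fhl2 lies at 1.26 with its square at 0.07.

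On the TPM scale the median gene itself was displaced. On log2(TPM + 1) the log2(fold change) of the median gene was -0.14 (1 Hz), -0.21 (4 Hz) and -0.014 (10 Hz) against control. At 4 Hz limma on that scale called Csrp3 higher, with 0.37 (adjusted p = 0.0068), which is 0.57 above the median gene. It called Pdlim7 lower, with -0.37 (limma adjusted p = 0.0040), and Fhl1 lower, with -0.22 (adjusted p = 0.032), which are -0.16 and -0.0091 from the median gene. At 1 Hz Csrp2 was called higher (0.28, limma adjusted p = 0.031) and Pdlim7 lower (-0.30, adjusted p = 0.028). The calls of Fhl3 (0.035), Csrp1 (0.037), Csrp2 (0.21), Pdlim3 (0.093) and Ldb3 (-0.084) at 4 Hz were lost on this scale. Relative to the median gene these differences were 0.24, 0.25, 0.42, 0.30 and 0.13. At 1 Hz the calls of Fhl3 (0.16), Csrp1 (0.22), Ldb3 (-0.16) and Pdlim5 (0.018) were lost, with 0.30, 0.37, -0.013 and 0.16 relative to the median gene. The sign of Fhl1 and Ldb3 at 1 and 4 Hz, of Pdlim3 at 1 Hz and of Pdlim5 at 4 and 10 Hz was opposite to that in CPM. Fhl2 had 1.06 (1 Hz), 0.91 (4 Hz) and 0.54 (10 Hz) on this scale, where its call at 10 Hz was lost.

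**Figure D5:**
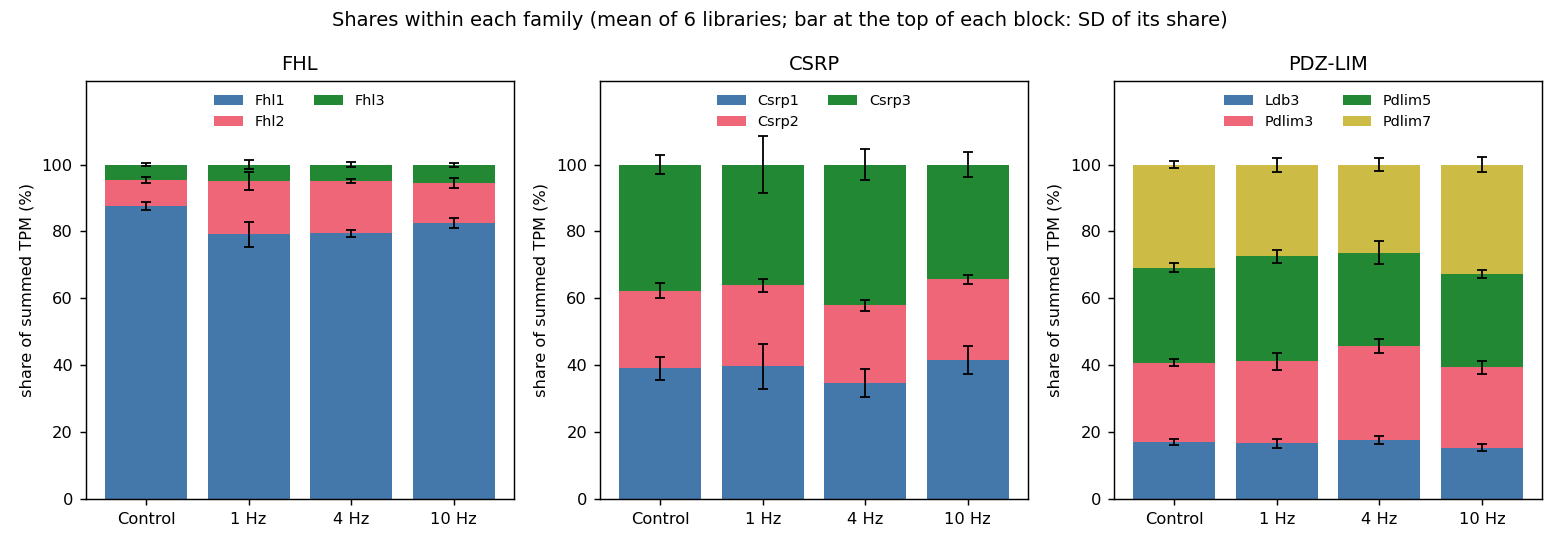
Share of each gene in the summed TPM of its family (vertical axes, percent) in the 4 groups; blocks are means of 6 libraries and the bar at the top of a block is the SD of its share. The block of Fhl2 is 7.84% in controls and 15.6% at 4 Hz, and that of Csrp3 is 37.7% and 42.1%.

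The ratio of count to TPM also follows the length of the isoforms to which reads were assigned. Relative to the median gene it differed from control by -0.043 to 0.13 on the log2 scale over 30 exact permutation tests, of which 0 passed an adjusted p of 0.05 and 7 an unadjusted one. Ldb3 and Fhl3 at 1 Hz are named after their values were seen. Ldb3 had 0.13 (exact p = 0.0022, adjusted p = 0.065), with 6 of 6 libraries above all controls, and Fhl3 had 0.12 (exact p = 0.0087, adjusted p = 0.087).

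Among the members, Csrp3 and Pdlim3 varied most alike, with r = 0.90 over 24 libraries and 0.81 once group means were removed. Fhl2 had r = 0.82 with both Csrp1 and Csrp2, and 0.35 and 0.45 without group means. Csrp1 and Pdlim3 had r = 0.13, and -0.71 without group means. These correlations describe libraries that share depth, preparation and the balance of short and long genes.

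Over all tested genes, Dyrk3 and Xbp1 were most like Fhl2, with r = 0.947 and 0.942 over 24 libraries, and 0.755 and 0.342 without group means. Csrp3 was most like Atp5o (0.979) and Cox6b1 (0.977), which encode subunits of mitochondrial complexes, and these values were 0.970 and 0.964 without group means. Csrp3 also followed the median of genes of similar transcript length, with r = 0.930. The balance of short and long genes was not taken out of the correlations in this paragraph. Pdlim3 was most like Pbxip1 (0.953) and Rtn2 (0.915), and Fhl1 most like Casq1 (0.923), the calsequestrin of fast muscle, and Ddc (0.921). Csrp1 was most like Lurap1l (0.900) and Ccn2 (0.886), and Csrp2 most like Rarres2 (0.931) and Dguok (0.929). Ldb3 was closest to Esrrg (0.906) and Pknox2 (0.878), Pdlim5 to Sc5d (0.893) and Serinc1 (0.862), Pdlim7 to Mgat1 (0.862) and Dvl2 (0.862), and Fhl3 to Add3 (0.865) and Casc3 (0.837).

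Of 9 further FHL, CRP and PDZ-LIM genes, 7 were tested, with 1 called higher and 2 lower at 1 Hz, and 2 higher and 2 lower at 4 Hz. Beside these and the counts that follow, 19.2% of all genes were called higher and 18.1% lower at 1 Hz. The shares were 27.5% and 23.9% at 4 Hz. At 4 Hz Crip1 (log2(fold change) 0.65) and Fhl4 (0.89) were higher, and Pdlim2 (-0.86) and Crip2 (-0.36) lower. Fhl4 had few reads, with means of 0.89 CPM in controls and 1.65 at 4 Hz, beside 68.0 and 107 for Crip1. Of 30 tested LIM genes of the actin cytoskeleton and adhesions, 7 were higher and 2 lower at 1 Hz, and 11 higher and 5 lower at 4 Hz. Lims2 (0.60), Tes (0.55) and Micall2 (1.02) were among those higher at 4 Hz, and Limd1 (-0.26), Pxn (-0.25) and Mical2 (-0.45) among those lower. On log2(TPM + 1) limma called 2 genes of the 2 lists together higher and 4 lower at 1 Hz, and 2 higher and 9 lower at 4 Hz. The median gene stood at -0.14 and -0.21 on that scale. The share of all genes called there is not given, so nothing is read from these counts. The calls of Lims2 (0.25) and Tes (0.22) were among those lost. At 10 Hz edgeR called 0 genes of both lists, with 8 at an unadjusted p under 0.05 as for 8.07% of all genes, limma called 0, and DESeq2 called 1, Lmcd1, with -0.56 (adjusted p = 0.049), which is named after its values were seen.

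At 1 Hz 19.2% of all genes were called higher and 18.1% lower, and at 4 Hz 27.5% and 23.9%. Of 18 tested Z-disc partner genes, 2 were called higher and 0 lower at 1 Hz, and 3 higher and 0 lower at 4 Hz. Those at 4 Hz were Nexn (log2(fold change) 0.41), Myoz2 (0.37) and Tcap (0.47), which encode nexilin, a calsarcin and telethonin, a partner of muscle LIM protein. Each lost its call on the TPM scale, with 0.17, 0.01 and 0.14. Of 19 SRF-responsive genes, 2 were higher and 1 lower at 1 Hz. At 4 Hz 0 were higher and 5 lower, where 27.5% of all genes were called higher and 23.9% lower. There the median log2(fold change) of the list was -0.18, beside 0.06 over all tested genes. Mrtfa (-0.80), the actin-sensing coactivator of SRF, Acta2 (-0.41) and Actg1 (-0.35) were among the 5 lower. At 10 Hz edgeR called 0 genes of either list, with 3 and 2 at an unadjusted p under 0.05, beside 8.07% of all genes.

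Markers of other cells were looked at beside the members. At 4 Hz the numbers called higher and lower were 2 and 0 of 10 for myotubes, 1 and 4 of 8 for cycling cells, and 3 and 1 of 4 for reserve or satellite cells. They were 2 and 1 of 8 for fibroblast-type matrix genes, 1 and 1 of 5 for smooth muscle, and 1 and 1 of 2 for fat cells. At 1 Hz they were 0 and 0, 1 and 0, 2 and 1, 2 and 1, 3 and 0, and 1 and 1 in the same order, and at 10 Hz edgeR called 0, with 2, 0, 1, 0, 3 and 0 at an unadjusted p under 0.05. Over all genes, 27.5% were called higher and 23.9% lower at 4 Hz, and 19.2% and 18.1% at 1 Hz. At 10 Hz 8.07% of all genes had an unadjusted p under 0.05. The summed TPM of the smooth muscle markers ran from 634 to 960.3 in controls and from 429 to 742 at 4 Hz, and that of cycling cells from 22.4 to 36.3 and from 18.8 to 29.5. At 1 and 10 Hz these sums were 487 to 882 and 743 to 981 for smooth muscle, and 23.0 to 45.8 and 30.7 to 43.3 for cycling cells. All sums are on the TPM scale, where the median gene had -0.21 at 4 Hz. The sum for reserve or satellite cells was 295 to 329.8 in controls and 259.6 to 339 at 4 Hz, for fibroblast-type matrix genes 796 to 1202 and 683 to 1100.0, and for fat cells 28.8 to 39.0 and 18.7 to 33.6. Myh11, the defining smooth muscle marker, and Adipoq, Plin1, Fabp4 and Cidec, of fat cells, did not pass the filter on low counts. The part of other cells in the differences of the members was not tested.

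3 of the 10 members overlap a gene on the opposite strand, and the study names a directional library kit. How counting used the strand is not given in the sources used here. Fhl2, on chromosome 1 from 43162199 to 43236290 on the minus strand of GRCm39, overlaps AI597479, whose level was 19.8 ± 1.98 TPM in controls (SD, n = 6) and 16.9 ± 2.76 (1 Hz), 15.0 ± 2.55 (4 Hz) and 18.5 ± 2.16 (10 Hz) with stimulation. Gm30307, also opposite to Fhl2, had at most 1 count in any library, as did Gm49012, opposite to Ldb3. Csrp3 lies on chromosome 7 from 48480142 to 48497901 on the minus strand, and Pdlim3 on chromosome 8 from 46338398 to 46372689 on the plus strand, both without such an overlap.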

How the data were processed

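RNA of 24 tissues was sequenced after poly(A) selection, with ribodepletion for low-input samples that the labels do not name. Estimated counts per gene were deposited by the authors as Salmon gave them, not normalized, and TPM was deposited beside them, divided by transcript length and scaled to a sum per library. The study names BWA-MEM for mapping to GRCm39, bedtools, in a later version than the notes give, for quality metrics, and the nf-core/rnaseq pipeline. The submitters' processing notes name STAR, Salmon, BWA 0.7.12-r1039 and bedtools 2.25.0, with no role or order.

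Counts were rounded to whole numbers and tested with edgeR 4.0.16 in R 4.3.3 (filterByExpr with a minimum count of 10 and a total of 15, TMM, robust quasi-likelihood F test, 1 fit of 24 libraries). P-values were adjusted by Benjamini-Hochberg over 13315 genes. Each SE is the absolute log2(fold change) divided by the square root of the F statistic. The depth of 8052369 to 18159144 counts and a biological coefficient of variation of 14.8% limit the changes that can be seen. Replicates are separate tissues of 1 line. The scripts were tested on simulated data. Alternatives were DESeq2 1.42.0, limma 3.58.1 on log2(TPM + 1) or log2(TPM + 0.1) for genes at 1 TPM in 6 libraries, other scaling and filters, 2 groups in the fit, a replicate block, and leaving out each library. Centring on genes of similar length, and leaving out the 1 Hz libraries 4 and 6, were chosen after seeing the data.

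The members, the lists and the tests were chosen with earlier results of these data known. Named are every member, the 2 genes most correlated with each, and up to 3 called genes of each list of LIM, Z-disc and SRF-responsive genes in each direction with the smallest p at 4 Hz, and up to 2 at 10 Hz. Marker lists are given by counts and sums. Gene positions and promoters are from GENCODE M39 and GRCm39.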

Additional observations from a re-analysis of the deposited data

Results flagged for a closer look

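In 40 groups of 6 libraries (10 members by 4 groups), 2 had a library far from the others by Dixon's ratio of the gap to the range, and chance gives about 1 in 20. Csrp3 was highest in control library 1, with 78.4 CPM beside 66.4 CPM in the next library (ratio 0.703). Ldb3 was lowest in 1 Hz library 3, with 133 CPM beside 166 CPM in the next (ratio 0.785). Without control library 1 the log2(fold change) of Csrp3 at 1 Hz was 0.45 and passed the threshold of the edgeR test.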

How the results depend on the processing

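Of 1319 recomputed log2(fold change) values of members, 1178 kept their direction and their side of the threshold, 76 missed it, 21 newly passed it and 44 changed sign. Of 333 values of the named list genes at 4 Hz, 308 kept both and 25 missed the threshold. Csrp3 at 4 Hz passed under all 10 alternatives (0.37 to 0.75) and without each library (0.61 to 0.77).

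With limma on log2(TPM + 1) or log2(TPM + 0.1), 3 members were called at 1 Hz (2 higher, 1 lower), 4 at 4 Hz (2 higher, 2 lower) and 0 at 10 Hz. Between 10 and 1 Hz 2 members were called (1 higher, 1 lower), and between 10 and 4 Hz 3 (1 higher, 2 lower). Other LIM genes called were 6 at 1 Hz (2 higher, 4 lower) and 11 at 4 Hz (2 higher, 9 lower). The share of all genes called on that scale is not given here. With the fold threshold of 0.5 the members called were 1 at 1 Hz, 3 at 4 Hz, 1 at 10 against 1 Hz and 2 at 10 against 4 Hz, and other LIM genes 3 and 10. Without a filter, 13 other LIM genes were called at 4 Hz. At 10 Hz, 1 was called by DESeq2 and 1 with 2 groups in the fit. Without the 1 Hz libraries 4 and 6, 2 members were called at 4 against 1 Hz. The cause of these changes in the counts was not tested.

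Leaving out each library gave 5 to 8 members at 1 Hz, 7 at 4 Hz, 1 at 10 Hz, 0 at 4 against 1 Hz, 5 to 8 at 10 against 1 Hz and 6 to 7 at 10 against 4 Hz. Other LIM genes gave 11 to 13, 16 to 21 and 0, and 0 tests of implied length passed.

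Signs changed on the TPM scale, where 2 values are those with pseudocounts of 1 and 0.1. Against control at 1 Hz, Fhl1 had -0.076 with both, Ldb3 -0.16 and -0.16, and Pdlim3 -0.090 and -0.090. At 4 Hz, Fhl1 had -0.22 and -0.22, Ldb3 -0.084 and -0.085, and Pdlim5 -0.17 and -0.17, and at 10 Hz Pdlim5 had -0.065 and -0.066. At 4 against 1 Hz, Csrp2 had -0.064 and -0.065. At 10 against 1 Hz, Fhl3 had 0.054 and 0.058, and Pdlim3 0.058 and 0.059. At 10 against 4 Hz, Fhl1 had 0.063 and 0.063, Fhl3 0.18 and 0.18, Csrp1 0.12 and 0.12, and Pdlim5 0.11 and 0.11. Pdlim5 at 10 Hz had -0.0046 without a filter and -0.010 when centred on genes of similar length. Without the 1 Hz libraries 4 and 6, Pdlim3 at 1 Hz had -0.0066 and Fhl1 at 4 against 1 Hz 0.071. Leaving out each library, values at 10 Hz ran from -0.11 to 0.023 for Csrp3, from -0.052 to 0.028 for Pdlim3 and from -0.018 to 0.029 for Pdlim5, and Fhl1 at 4 against 1 Hz ran from -0.094 to 0.028.

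Same-numbered libraries of different groups correlated at -0.33 to 0.24 in their deviations, over 0.1 in 3 of 36 pairs, and 4 of 36 correlated best with their own number. The replicate block gave 5, 7, 1, 0, 6 and 7 members called in the 6 comparisons (1, 4 and 10 Hz against control, 4 against 1, 10 against 1 and 10 against 4 Hz), and lost the calls of Ldb3 at 1 Hz (0.18) and Csrp3 at 10 against 1 Hz (-0.42).

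Csrp3 at 10 against 1 Hz missed the threshold without any 1 of 7 libraries (1 Hz libraries 4 and 6, and 10 Hz libraries 1, 2, 4, 5 and 6). Csrp3 at 1 Hz passed it without control 1 or 1 Hz library 1, 3 or 5, with 0.45 to 0.47. Implied lengths were recomputed for all 10 members, and their values by gene were compared across settings for Ldb3 and Fhl3 alone.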
